A study of Mus musculus with 6 samples.

Results

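Keratins are the intermediate filament proteins of epithelial cells, and 53 keratin genes were read here among 22180 measured genes. They were taken by symbol, as every gene of the platform annotation named Krt followed by a number and at most 1 letter, which leaves out the keratin-associated protein genes. Of the 54 keratin genes in the RefSeq mouse table, Krt5 alone had no probe set of its own. The 53 genes were 28 of type I and 25 of type II. Krt18 had 2 probe sets and each of the other 52 had 1.

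A keratin filament is built from pairs of a type I and a type II protein, so an epithelial cell makes at least 1 gene of each type. Krt8 and Krt18 form the first pair of the embryo and stay in simple (single-layered) epithelia such as gut, liver and mesothelium. Layered epithelia use Krt5 with Krt14 or Krt15 at their base and other pairs above, and a large group of keratins builds hair. Heart muscle cells rely on desmin as their main intermediate filament, whereas the outer layer of the heart is a simple epithelium.

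RNA from 6 mouse samples was hybridised to Affymetrix Mouse Gene 2.0 ST arrays, with 1 library per group. Undifferentiated iPS cells (induced pluripotent stem cells, made by reprogramming and able to give rise to most tissues) had been kept on feeder cells with LIF. For cardiac differentiation they spent 5 days in suspension as embryoid bodies, were then plated on gelatin and were harvested at day 7, after treatment with 1% DMSO together with 100 ng/ml NRG-1 (neuregulin 1, a growth factor that acts through ERBB receptors), with NRG-1 alone, or with DMSO alone. Cardiomyocytes from adult hearts and from neonatal hearts gave 1 library each, and undifferentiated iPS cells gave the last. The labels give DBA/2J as the strain and female as the sex of all 6, no age beyond adult and neonatal, and no culture differentiated without DMSO and NRG-1. Values are log2 levels after RMA, which makes the arrays nearly equal in distribution, with library medians between 5.13 and 5.26. Without replicates no difference could be tested, and precision is limited by having a single array per group. As a guide to technical error, the gap between paired probe sets of the same gene was scaled to a single probe set. Its SD was 0.55 to 0.60 log2 in differences from iPS cells, and 0.20 to 0.34 in the other comparisons. This SD does not measure the spread between arrays or samples.

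The labels were first checked against marker genes. The mean level of 12 cardiomyocyte genes was 7.20 with DMSO and NRG-1, 6.83 with NRG-1, 7.09 with DMSO, 5.56 in adult and 6.76 in neonatal cardiomyocytes, and 5.64 in iPS cells, so the library labelled adult cardiomyocytes did not stand above iPS cells. For 8 fibroblast genes the means were 11.08 in adult and 10.58 in neonatal cardiomyocytes, between 8.50 and 9.09 in the cultures, and 6.70 in iPS cells. The Y-linked genes Eif2s3y, Kdm5d and Uty had levels between 7.02 and 8.15 in the adult and between 6.17 and 7.14 in the neonatal library, against 2.75 to 4.06 in the other 4, which goes against the label female for both. Xist, the RNA of the inactive X chromosome, had 3.39 in the adult library and 8.78 in the neonatal one, the highest of the 6, so the neonatal library held Xist and Y-linked RNA together and the adult library did not. Nanog, which marks pluripotent cells, had 11.86 in iPS cells and at most 4.83 elsewhere.

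Differentiated cultures were set against undifferentiated iPS cells to describe which keratins accompany differentiation. All 6 keratins of simple epithelia were at least 4-fold higher in each of the 3 cultures, and Krt15, Krt16, Krt17, Krt6a, Krt4 and Krt13 of layered or activated epithelia were at least 2-fold higher in each. No keratin was 2-fold lower, where 13.1% of genes were with DMSO and NRG-1, 14.5% with NRG-1 and 13.3% with DMSO. None of the 15 measured hair shaft keratins and none of the 8 measured inner root sheath keratins was 2-fold apart. A gene was counted when the higher of its 2 levels reached the median of all values, 5.20, and this held for 33 of the 53 keratins with DMSO and NRG-1, for 31 with NRG-1 and for 34 with DMSO.

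With DMSO and NRG-1, 13 keratins were at least 2-fold higher than in iPS cells, beside 13.0% of all genes counted. With NRG-1 there were 12, beside 11.3%, and with DMSO 13, beside 13.1%. At least 4-fold higher were 9 keratins with DMSO and NRG-1 (beside 3.66%), 8 with NRG-1 (beside 2.96%) and 10 with DMSO (beside 3.6%). Taken over all 53 keratins, the 2-fold counts were 24.5%, 22.6% and 24.5%, where the same calls over all 22180 genes gave 8.02%, 7.01% and 8.11%. The median difference of all 53 keratins was 0.22 with DMSO and NRG-1, 0.35 with NRG-1 and 0.34 with DMSO, against -0.02, -0.002 and -0.0023 over all genes. Most keratins thus lay near the level of iPS cells, and the counts rest on a small set of genes. The 5 comparisons with iPS cells share the iPS library, so they are not independent of one another. Moving the libraries so that the median of 10 housekeeping genes was the same in each raised the median difference of all genes by 0.56, 0.54 and 0.72, each in the order given, and put 17, 16 and 26 keratins at least 2-fold higher and 0 lower, beside 28.3%, 26.3% and 35.5% of genes higher and 5.81%, 6.99% and 4.51% lower. A stricter count took only genes whose higher level reached the 75th percentile of all values, 6.93. It left 8 keratins with DMSO and NRG-1, 7 with NRG-1 and 9 with DMSO. The share of all genes was not counted under this filter.

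**Figure D1:**
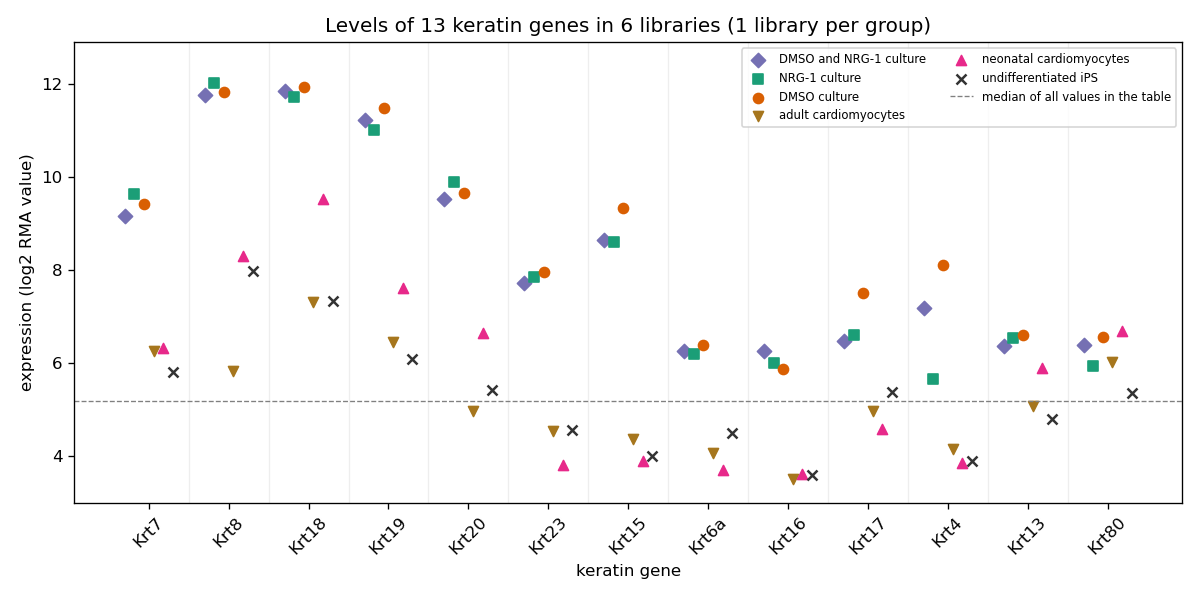
Log2 levels (vertical axis) of the 13 keratin genes that were at least 2-fold apart in a comparison (horizontal axis), with 1 point for each of the 6 libraries and no error bars because each group has 1 library. For 12 of the genes, all but Krt80, the 3 cultures lie above the other 3 libraries; levels of different genes come from different probe sets and cannot be set against each other.

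Krt8, the type II keratin of simple epithelia, had 11.77 with DMSO and NRG-1, 12.02 with NRG-1, 11.83 with DMSO, 5.84 in adult and 8.30 in neonatal cardiomyocytes, and 7.99 in iPS cells. Its differences from iPS cells were 3.78, 4.03 and 3.84 in the 3 cultures in that order, or 13.7-fold, 16.4-fold and 14.3-fold. Its type I partner Krt18 had 11.85 with DMSO and NRG-1, 11.73 with NRG-1, 11.95 with DMSO, 7.32 in adult and 9.53 in neonatal cardiomyocytes, and 7.34 in iPS cells. Its differences from iPS cells lay between 4.39 and 4.61 in the cultures. The 2 probe sets of Krt18 gave 4.53 and 4.50 with DMSO and NRG-1, 4.53 and 4.25 with NRG-1, and 4.56 and 4.66 with DMSO, so they differed by far less than the distance to iPS cells. The cultures stood well above every other library for both partners, and iPS cells already had Krt8 and Krt18 above the median of all values.

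Krt19, a type I keratin of ducts and mesothelium, had 11.23 with DMSO and NRG-1, 11.01 with NRG-1, 11.48 with DMSO, 6.45 in adult and 7.61 in neonatal cardiomyocytes, and 6.09 in iPS cells. It was 35.3-fold, 30.4-fold and 42.0-fold higher in the cultures in that order. Krt7, a type II keratin of ducts and glands, had 9.18 with DMSO and NRG-1, 9.63 with NRG-1, 9.43 with DMSO, 6.27 in adult and 6.34 in neonatal cardiomyocytes, and 5.82 in iPS cells. Krt20, known from the lining of stomach and gut, had 9.53 with DMSO and NRG-1, 9.89 with NRG-1, 9.66 with DMSO, 4.98 in adult and 6.64 in neonatal cardiomyocytes, and 5.43 in iPS cells. Both lay at least 2.84 log2 higher in the lowest culture than in the highest other library. Krt23, a type I keratin, had 7.72 with DMSO and NRG-1, 7.84 with NRG-1, 7.96 with DMSO, 4.55 in adult and 3.81 in neonatal cardiomyocytes, and 4.57 in iPS cells. Among the 6 simple epithelial keratins the cultures differed from each other by at most 0.47.

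The promoters of 5 of these simple epithelial keratins are shown because the genes were high together in the cultures. Each line gives 150 bases before the annotated start and 10 after it, 5′ to 3′ on the gene's own strand, from the RefSeq promoter table of build GRCm38.p6. Capitals mark matches, on either strand, to the motifs TATAAA (the TATA box, which places the start of transcription) and GGGCGG (a binding sequence of Sp1-type factors). The motif TGANTCA, which AP-1 factors bind, was also searched and has no match in these windows. The windows are Krt8 chr15:102004333-102004492, minus strand, Krt18 chr15:102028066-102028225, plus strand, Krt7 chr15:101412253-101412412, plus strand, Krt20 chr11:99438144-99438303, minus strand, and Krt23 chr11:99493111-99493270, minus strand.
Krt8: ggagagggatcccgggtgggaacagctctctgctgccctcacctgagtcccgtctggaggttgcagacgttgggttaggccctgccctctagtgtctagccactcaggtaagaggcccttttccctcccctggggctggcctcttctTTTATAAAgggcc
Krt18: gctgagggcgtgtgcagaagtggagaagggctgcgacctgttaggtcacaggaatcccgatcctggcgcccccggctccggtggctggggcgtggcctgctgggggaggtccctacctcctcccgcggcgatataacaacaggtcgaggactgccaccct
Krt7: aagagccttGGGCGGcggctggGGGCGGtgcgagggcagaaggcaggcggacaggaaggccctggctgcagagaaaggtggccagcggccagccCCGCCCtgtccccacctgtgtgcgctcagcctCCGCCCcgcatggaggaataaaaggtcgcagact
Krt20: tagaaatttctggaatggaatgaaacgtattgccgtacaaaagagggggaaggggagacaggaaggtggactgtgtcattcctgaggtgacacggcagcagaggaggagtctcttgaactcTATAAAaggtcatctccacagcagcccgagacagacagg
Krt23: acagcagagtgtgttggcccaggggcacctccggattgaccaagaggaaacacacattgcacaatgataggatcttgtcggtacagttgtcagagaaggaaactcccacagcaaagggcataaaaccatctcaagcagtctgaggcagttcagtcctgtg
TATAAA and GGGCGG are in some of the 5 windows and not in others. Krt20 has TATAAA starting 29 bases before its annotated start, and in Krt8 it starts 1 base before it, overlapping a match on the other strand. Krt7 has 4 matches to GGGCGG and none to TATAAA, while the windows of Krt18 and Krt23 hold none of the 3 motifs. Over the whole 300-base entries, which reach from 250 bases before the start to 50 after it, TATAAA was in 19 of the 36 entries for 35 of the measured keratin genes (52.8%), against 13.6% of all 32851 promoters, and GGGCGG was in 5.56% against 35.7%. TGANTCA was in 5.56% against 7.81%, and the 2 keratin entries with it were both of Krt13. Of the 13 keratins that were 2-fold apart in a comparison, only 6 had an entry. Among these 6, Krt8 and Krt20 had TATAAA, as had 17 of the other 29 keratins with an entry. A match is a description of letters and no evidence of binding.

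Keratins of layered epithelia were led by Krt15, a type I keratin of the basal layer. It had 8.64 with DMSO and NRG-1, 8.61 with NRG-1, 9.33 with DMSO, 4.36 in adult and 3.90 in neonatal cardiomyocytes, and 4.0 in iPS cells, and the measured ratios to iPS cells were 25.1, 24.5 and 40.3 in the cultures in that order. The 3 other libraries had Krt15 below the median of all values, in iPS cells near the 25th percentile (3.92), where the distance from background is unknown, so these ratios may understate the difference. Krt14, the main type I keratin of the basal layer, had 5.91 with DMSO and NRG-1, 5.14 with NRG-1 and 5.82 with DMSO, 4.59 in adult and 5.27 in neonatal cardiomyocytes, and 5.03 in iPS cells, and was not 2-fold apart from iPS cells in any culture. Krt5, the type II partner of Krt14 and Krt15, was not read.

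Among the keratins of activated epithelium, which appear after wounding and in skin appendages, Krt16 had 6.26 with DMSO and NRG-1, 6.01 with NRG-1, 5.88 with DMSO, 3.51 in adult and 3.62 in neonatal cardiomyocytes, and 3.59 in iPS cells. Krt6a, a type II keratin that can pair with it, had 6.27 with DMSO and NRG-1, 6.19 with NRG-1, 6.39 with DMSO, 4.08 in adult and 3.70 in neonatal cardiomyocytes, and 4.50 in iPS cells. Both reached the median of all values in the cultures and in no other library. A probe set naming Krt5 and Krt6a together, left out of the gene values, differed less. It read 5.67 with DMSO and NRG-1, 5.63 with NRG-1, 5.85 with DMSO and 5.41 in iPS cells. Krt17 had 6.48 with DMSO and NRG-1, 6.60 with NRG-1, 7.52 with DMSO, 4.98 in adult and 4.59 in neonatal cardiomyocytes, and 5.39 in iPS cells, and was 4.36-fold higher than in iPS cells with DMSO. The near copy Krt6b and the hair follicle keratin Krt75 stayed at or below 4.40 in all 6 libraries.

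Of the 13 suprabasal keratins, which replace the basal ones as cells move up through a layered epithelium, 3 were at least 2-fold higher with DMSO and NRG-1, 2 with NRG-1 and 3 with DMSO. The same calls held for 8.02%, 7.01% and 8.11% of all genes, in that order. Of the 13, 8, 7 and 8 passed the filter on level, so these counts are small. Krt4, the type II keratin of mucosal layers such as the oesophagus, had 7.19 with DMSO and NRG-1, 5.65 with NRG-1, 8.11 with DMSO, 4.15 in adult and 3.86 in neonatal cardiomyocytes, and 3.89 in iPS cells. Its type I partner Krt13 had 6.36 with DMSO and NRG-1, 6.54 with NRG-1, 6.60 with DMSO, 5.08 in adult and 5.90 in neonatal cardiomyocytes, and 4.80 in iPS cells. The cultures lay above the other libraries for both genes, but for Krt13 by only 0.46 over the neonatal library. Krt80 had 6.38 with DMSO and NRG-1, 5.93 with NRG-1, 6.57 with DMSO, 6.02 in adult and 6.69 in neonatal cardiomyocytes, and 5.36 in iPS cells, so the cultures and the heart libraries overlapped. The epidermal pair Krt1 and Krt10 was not 2-fold apart in any comparison.

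By the same count the remaining 40 keratins were 2-fold apart in none of the 9 comparisons, and their levels lay between 3.32 and 6.36 in all 6 libraries. Of these, 22 reached the median of all values in some comparison and 18 did not in any. The hair shaft keratins had levels between 3.83 and 6.20 and the inner root sheath keratins between 3.40 and 5.67. The widest spread over the 6 libraries among the 40 was 1.32, that of Krt14. Over all 53 keratins, 23 had every culture above every other library, beside 14.8% of all genes, and for 11 the gap was at least 2-fold, beside 1.74%. These 11 were Krt7, Krt8, Krt18, Krt19, Krt20, Krt23, Krt15, Krt16, Krt17, Krt6a and Krt4.

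Keratin genes lie in 2 clusters, the type I genes on chromosome 11 and the type II genes, with Krt18, on chromosome 15. In the RefSeq order the keratins that were high in the cultures were partly neighbours. Krt20 and Krt23 follow each other among the 27 type I genes of their cluster, and so do Krt13, Krt15 and Krt19, and Krt16 and Krt17. Krt9 and Krt14 stand between Krt19 and Krt16, and their differences from iPS cells stayed between 0.11 and 0.88 in the cultures. In the type II cluster Krt8 and Krt18 are neighbours at one end. Krt7 lies near the other, beside Krt80, whose levels in the cultures overlapped those in the heart libraries. Krt6a lies between Krt6b and the unread Krt5, and Krt4 between Krt76 and Krt79, which were within 2-fold of iPS cells in all 3 cultures.

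**Figure D2:**
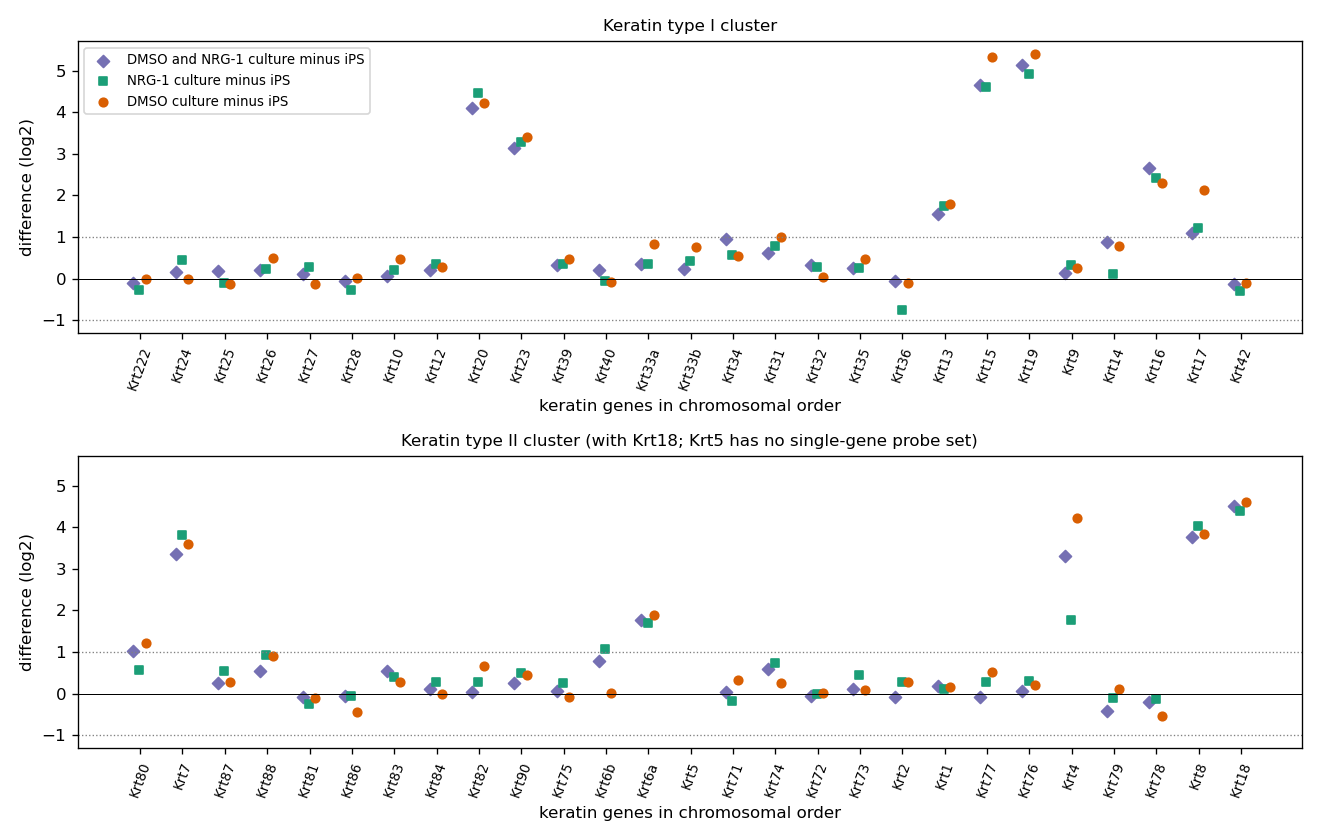
Difference in log2 level of each differentiated culture minus iPS cells (vertical axis) for the keratin genes in their order along the chromosome (horizontal axis), with the type I cluster above and the type II cluster below and dotted lines at 2-fold. Some of the high genes form short runs, such as Krt13, Krt15 and Krt19, and others, such as Krt4, stand alone. The hair shaft and inner root sheath keratins lie within 2-fold of iPS cells.

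The 3 cultures were then compared with each other to ask what NRG-1 and DMSO add. DMSO and NRG-1 minus DMSO differs by NRG-1, and DMSO and NRG-1 minus NRG-1 differs by DMSO. NRG-1 minus DMSO differs in both agents at once, so its differences cannot be assigned to either agent. The simple epithelial keratins were alike in all 3, none being 2-fold apart, and 2 keratins of layered epithelia stood out. Krt4 was 5.47-fold lower with NRG-1 than with DMSO (-2.45), the only keratin 2-fold apart in that comparison, beside 1.78% of genes lower and 0.36% higher. It was 1 of 10 genes at least 4-fold lower among the 13343 counted (0.0749%). With DMSO and NRG-1, Krt4 was 2.91-fold higher than with NRG-1 (1.54), beside 1.08% of genes higher and 0.293% lower, and differed by -0.91 from its level with DMSO. Krt17 was 2.05-fold lower with DMSO and NRG-1 than with DMSO (-1.03), 1 of only 7 genes lower by 2-fold among 13198 (0.053%, beside 0.0455% higher), and it differed by -0.92 between NRG-1 and DMSO. Krt15 differed by -0.68 between DMSO and NRG-1 together and DMSO, and by -0.72 between NRG-1 and DMSO, both less than 2-fold. Scaled to a single probe set, the gap between probe sets of the same gene had an SD of 0.20 log2 for DMSO and NRG-1 minus DMSO. It was 0.30 for the other 2 comparisons, and leaves out the spread between arrays. The housekeeping shift put 2 keratins at least 2-fold lower in DMSO and NRG-1 minus DMSO, beside 0.137% of genes counted. In NRG-1 minus DMSO it put 2 lower, beside 3.1%.

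**Figure D3:**
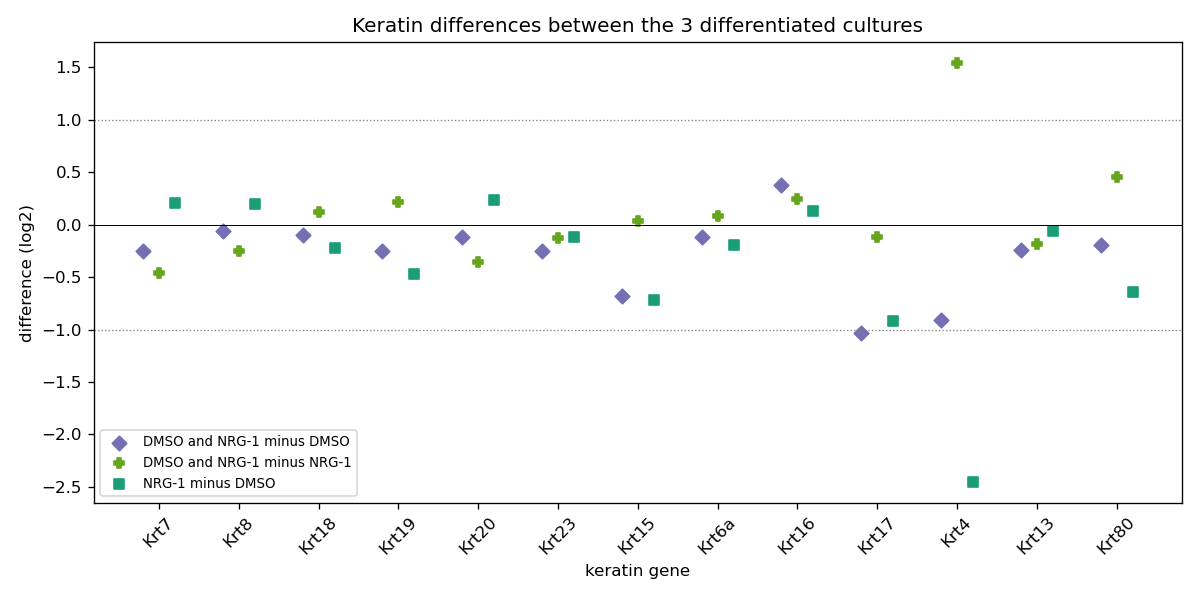
Differences in log2 level between pairs of differentiated cultures (vertical axis) for 13 keratin genes (horizontal axis), 1 point for each pair of libraries, with dotted lines at 2-fold. Krt4 lies at -2.45 for NRG-1 minus DMSO and at 1.54 for DMSO and NRG-1 minus NRG-1, Krt17 at -1.03 for DMSO and NRG-1 minus DMSO, and every other point lies within 2-fold.

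Some markers of other cell types were also lower with NRG-1 than with DMSO, as Krt4 was, and others were not. The 5 mesothelial genes had a mean of 7.75 with DMSO and NRG-1, 6.95 with NRG-1 and 8.0 with DMSO. Of them 3 were at least 2-fold lower with NRG-1 than with DMSO, with differences of -2.01 for the surface protein Msln and -2.10 and -1.10 for the uroplakins Upk1b and Upk3b, while Wt1 (-0.06) and Lrrn4 (0.01) hardly differed, where 1.78% of all genes counted were lower. Endoderm genes (7) had a mean of 9.13 with DMSO and NRG-1, 9.61 with NRG-1 and 9.08 with DMSO. All 7 were higher with NRG-1 than with DMSO, by 0.30 to 0.76, and none was 2-fold apart. Of the 12 cardiomyocyte genes 2 were at least 2-fold lower with NRG-1 than with DMSO, Myh6 (-1.11) and Actn2 (-1.24), as were 2 of 7 pluripotency genes, Sox2 (-1.19) and Tdgf1 (-1.06), and 1 of 8 fibroblast genes, Lum (-1.04). The part of cell makeup in the Krt4 difference was not tested, and in bulk RNA fewer cells of a type and less RNA per cell cannot be told apart.

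The heart-derived libraries held fewer high keratins. In adult cardiomyocytes 0 of the 24 keratins counted were at least 2-fold higher than in iPS cells, beside 13.1% of genes counted. Krt8 alone was lower, by 4.45-fold (-2.15), beside 14.1%. Taken over all genes, the shares were 8.12% higher and 8.75% lower. In neonatal cardiomyocytes 5 keratins were at least 2-fold higher, beside 13.0%, namely Krt18 (2.19), Krt19 (1.52), Krt80 (1.32), Krt20 (1.21) and Krt13 (1.09), and 0 were lower, beside 11.2%. These 5 are 9.43% of all 53 keratins, where the same call held for 7.93% of all genes, so the share was near the background. The housekeeping shift gave 1 keratin higher and 1 lower in the adult library, beside 26.5% and 6.44% of genes, and 7 higher and 0 lower in the neonatal one, beside 30.5% and 4.34%. The filter at the 75th percentile left 2 higher in the neonatal one, with no share of all genes counted under it.

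Adult and neonatal cardiomyocytes were compared to ask how the heart-derived libraries differ. Of the 6 simple epithelial keratins 4 were at least 2-fold lower in adult than in neonatal cardiomyocytes, beside 2.92% of genes counted. The differences were -2.47 for Krt8, -2.21 for Krt18, -1.66 for Krt20 and -1.16 for Krt19. The 2 probe sets of Krt18 gave -2.49 and -1.93. No keratin was 2-fold higher in the adult library, beside 2.52%, and Krt7 differed by -0.06. The SD between probe sets of the same gene, scaled to a single probe set, was 0.34 in this comparison and leaves out the spread between arrays. All 5 mesothelial genes were lower in the adult library, 4 of them by at least 2-fold. Their means were 5.98 in adult and 7.61 in neonatal cardiomyocytes, with Upk1b at 4.82 and 7.60 and the transcription factor Wt1 at 6.87 and 8.45 in that order. Of the 12 cardiomyocyte genes 6 were also at least 2-fold lower in the adult library, with Nppa at 5.06 in adult and 10.31 in neonatal cardiomyocytes, while none of the 7 endoderm genes was. The part of these cells in the keratin difference was not tested.

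**Figure D4:**
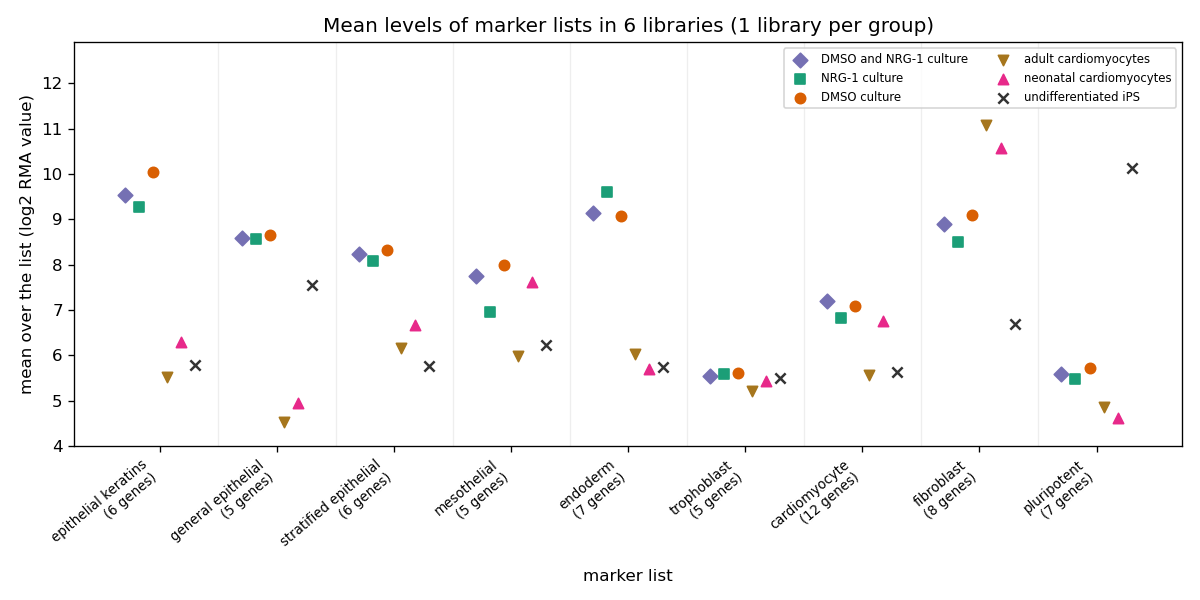
Mean log2 level (vertical axis) of 9 lists of marker genes (horizontal axis), with 1 point for each of the 6 libraries and the number of measured genes under each list. The 6 epithelial keratins average between 9.27 and 10.03 in the cultures and between 5.52 and 6.30 in the other 3 libraries. These 6 are the marker keratins, chosen with earlier results of these data known, so their mean does not stand for keratins as a whole. The mesothelial list is the only one of the 9 in which the neonatal library lies among the cultures.

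Markers of epithelial and endoderm cells were read beside the keratins of the cultures. The 7 endoderm genes, such as Afp of yolk sac and liver, had means between 9.08 and 9.61 in the cultures, 6.03 in adult and 5.71 in neonatal cardiomyocytes, and 5.73 in iPS cells. The 5 general epithelial genes had means between 8.56 and 8.65 in the cultures, 4.52 in adult and 4.94 in neonatal cardiomyocytes, and 7.56 in iPS cells. For 6 genes of stratified epithelia the means were between 8.09 and 8.31 in the cultures, 6.16 in adult and 6.66 in neonatal cardiomyocytes, and 5.76 in iPS cells. In this list Ivl, a precursor of the horny layer, had levels between 10.21 and 10.69 in the cultures, 5.66 in adult and 5.83 in neonatal cardiomyocytes, and 5.16 in iPS cells. Sprr1a, another such precursor, had levels between 12.34 and 12.80 in the cultures, 9.83 in adult and 11.48 in neonatal cardiomyocytes, and 4.77 in iPS cells, so it was high in the heart libraries too. Within the same list Trp63, the master regulator of stratified epithelia, stayed between 4.30 and 4.57 in all 6 libraries, below the median of all values, and the desmosomal cadherin Dsg3 between 4.14 and 4.83. The 5 trophoblast genes had means between 5.22 and 5.60 in all 6 libraries. The part of each cell type in the keratin levels was not tested.

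Keratin filaments end at desmosomes, the spot junctions between epithelial cells. Of 12 measured desmosome genes 4 were at least 2-fold higher than in iPS cells with DMSO and NRG-1, 3 with NRG-1 and 4 with DMSO, and 1 was lower, Pkp4 with NRG-1 (-1.19). The same calls held for 8.02%, 7.01% and 8.11% of all genes upward and for 8.08%, 9.01% and 8.25% downward, in the order DMSO and NRG-1, NRG-1, DMSO. Desmoplakin (Dsp), which ties keratins to the junction, had 10.41 with DMSO and NRG-1, 10.44 with NRG-1, 10.52 with DMSO, 5.08 in adult and 6.40 in neonatal cardiomyocytes, and 6.33 in iPS cells. The cadherin Dsc2 had 8.62 with DMSO and NRG-1, 8.44 with NRG-1, 8.79 with DMSO, 4.86 in adult and 5.54 in neonatal cardiomyocytes, and 5.48 in iPS cells. Its partner Dsg2 was higher by 1.70, 1.79 and 1.81 in the cultures in that order. The cultures exceeded every other library for all 3 genes. The list medians were 0.70, 0.49 and 0.61, beside the medians of all genes given above. In the heart libraries no desmosome gene was 2-fold higher than in iPS cells, where 8.12% of all genes were in adult and 7.93% in neonatal cardiomyocytes. Lower were 2 in adult and 1 in neonatal cardiomyocytes, where 8.75% and 6.87% of all genes were. Dsp differed by -1.32 between adult and neonatal cardiomyocytes.

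Of 10 measured genes for keratin linkers and hemidesmosomes, which anchor cells to the matrix, 5 were at least 2-fold higher than in iPS cells with DMSO and NRG-1, 5 with NRG-1 and 6 with DMSO, and 0 were lower. The integrin Itgb4 was higher by 1.95, 1.75 and 2.00, periplakin (Ppl) by 1.86, 1.18 and 1.98, and Fam83h, which organises keratin filaments, by 1.70, 1.24 and 1.66, each in the order DMSO and NRG-1, NRG-1, DMSO. Plectin (Plec), a linker also used in muscle, was higher in all 5 libraries, by 1.18 in adult and 1.51 in neonatal cardiomyocytes. In the heart libraries the list went both ways, with 2 genes at least 2-fold higher and 2 lower in adult cardiomyocytes. In neonatal cardiomyocytes 3 were higher and 2 lower. The lower genes were Itga6 (-1.73 in adult, -1.09 in neonatal) and Fam83h (-1.02 and -1.36). Among 17 epithelial regulators, 3 passed 2-fold upward and 1 downward with DMSO and NRG-1, 2 and 2 with NRG-1, and 4 and 1 with DMSO. The splicing regulator Esrp2 was higher by 1.74, 1.59 and 1.89 and the transcription factor Klf4 by 1.77, 2.18 and 1.46, while Tfap2c was lower, at -1.81, -1.73 and -2.01. In adult and neonatal cardiomyocytes 6 regulators each were at least 2-fold lower than in iPS cells, among them Klf5 (-3.62 and -3.14) and Elf3 (-3.35 and -3.14), and 1 was higher in the adult library, Esrp2 (1.08). The shares of all genes given for desmosomes apply to these counts too.

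The other intermediate filament genes differed from iPS cells in both directions. Of 15 measured, 3 passed 2-fold upward and 5 downward against iPS cells with DMSO and NRG-1, 1 and 4 with NRG-1, and 3 and 5 with DMSO. The same calls held for 8.02%, 7.01% and 8.11% of all genes upward and for 8.08%, 9.01% and 8.25% downward, in that order. With only 15 genes, upward counts of 1 to 3 are too small to set apart from these shares. Vimentin (Vim), the filament of mesenchymal cells, had 11.53 with DMSO and NRG-1, 10.80 with NRG-1, 11.61 with DMSO, 12.34 in adult and 12.48 in neonatal cardiomyocytes, and 10.86 in iPS cells. Desmin (Des), the muscle filament, had 9.19 with DMSO and NRG-1, 8.31 with NRG-1, 9.31 with DMSO, 6.61 in adult and 8.31 in neonatal cardiomyocytes, and 7.90 in iPS cells. The heart libraries were highest for Vim, and the adult library was lowest for Des. The lamin gene Lmna was higher than in iPS cells in all 5 libraries, by 1.07 to 2.40, and the neuronal filament Ina was lower in all 5, with differences between -4.11 and -3.61. Under the housekeeping shift the numbers lower in the cultures were 3, 2 and 2, beside 5.81%, 6.99% and 4.51% of genes counted. Those of epithelial regulators higher were 8, 5 and 10, beside 28.3%, 26.3% and 35.5%. Each is in the order DMSO and NRG-1, NRG-1, DMSO.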

How the data were processed

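Levels of 53 keratin genes were read in 6 mouse libraries, each on 1 Affymetrix Mouse Gene 2.0 ST array made from 300 ng of total RNA. The deposited table gives 41345 probe sets on a log2 scale. Per the submitters' processing notes, the authors summarised the arrays with RMA, whose version is not given in the sources used here. RMA corrects background, makes the distributions of the arrays equal and summarises probes, so a change of most genes at once cannot be seen. No detection call comes with the values, which leaves the distance of dim genes from background unknown.

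Gene symbols come from GEO's platform annotation. A gene was the mean of its probe sets with that single symbol, which gave 22180 genes, and 2 probe sets that name a keratin beside another gene were left out. All 53 keratin symbols matched the RefSeq table of GRCm38.p6 by Entrez identifier. The value table names no genome build, so coordinates are given only for RefSeq promoters.

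Differences of log2 levels were taken for 9 comparisons between single libraries, with no test and no p-value. Counts take genes 2-fold or 4-fold apart or more whose higher level reached the median of all values (5.20), and the same count over all genes is the background. The error guide compares both probe sets of 449 to 509 genes that have 2: it is the SD of the gap between their values of a comparison, scaled to a single probe set. Keratins given library by library are the 6 markers Krt8, Krt18, Krt19, Krt15, Krt4 and Krt17 and all keratins at least 4-fold apart in a comparison; other keratins, desmosome, linker, regulator, filament and marker genes come from lists. The members and lists were chosen with earlier results of these data known. Alternatives were no filter, a filter at the 75th percentile, the brightest probe set, cyclic loess (limma 3.58.1 in R 4.3.3) and a shift to equal medians of 10 housekeeping genes. Counting was tested on simulated data. Tables were handled with Python 3.11.15 and pandas 2.3.3.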

Additional observations from a re-analysis of the deposited data

How the results depend on the processing

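With 1 library per group no replicate could be left out. No paired analysis was possible because each group has 1 library and no result comes from a test. No difference of a named keratin turned its sign where it was 2-fold or more, under the brightest probe set, cyclic loess or the housekeeping shift. Under the brightest probe set and cyclic loess, all 18 counts of keratins 2-fold apart stayed within 1.5 times and all 9 keratin medians within 1.5-fold. The shift to equal housekeeping medians, added to all genes alike, gave 26 keratins at least 2-fold higher for DMSO minus iPS, 1 higher for adult cardiomyocytes minus iPS, 2 lower for DMSO and NRG-1 minus DMSO and 2 lower for NRG-1 minus DMSO. Of all genes counted, 35.5%, 26.5%, 0.137% and 3.1% passed in the same directions, in that order. The shift moved the keratin median to 1.06 for DMSO minus iPS and to 0.71 for neonatal cardiomyocytes minus iPS. A list count moved if it changed by more than 1.5 times, or to or from 0. Of 9 counts of genes higher per list, the shift moved 1 for desmosomes, 1 for linkers, 3 for regulators and 1 for other filaments. Of 9 counts lower per list it moved 3, 3, 2 and 5, in the same order. Among them were 6 desmosome genes higher for NRG-1 minus iPS (3 without the shift), beside 26.3% of genes. For DMSO and NRG-1 minus iPS 8 linkers were higher (5), beside 28.3%. For adult cardiomyocytes minus iPS 2 other filament genes were lower (7), beside 6.44%. Cyclic loess moved 1 count of linkers lower, 1 of other filaments lower, and 1 each of regulators higher and lower. The filter at the 75th percentile counts fewer genes, and no share of all genes was counted under it. It left 7 keratins higher for NRG-1 minus iPS, 8 for DMSO and NRG-1 minus iPS and 9 for DMSO minus iPS. For neonatal cardiomyocytes minus iPS it left 2. Without a filter 1 keratin was higher for NRG-1 minus DMSO, against 0 with it: the dim Krt6b, at 4.40 with NRG-1 and 3.34 with DMSO. The scaling decides how many keratins near iPS level pass 2-fold, and without background values the dim keratins have no settled order.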

Other observations

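Both probe sets that name a keratin together with another gene were assigned to neither gene. The one naming Krt5 and Krt6a read 5.67 with DMSO and NRG-1, 5.63 with NRG-1, 5.85 with DMSO, 5.43 in adult and 5.02 in neonatal cardiomyocytes, and 5.41 in iPS cells. The one naming Gm5478 and Krt6b read 4.38 with DMSO and NRG-1, 4.59 with NRG-1, 4.45 with DMSO, 3.90 in adult and 4.74 in neonatal cardiomyocytes, and 4.95 in iPS cells. Neither reached a 2-fold difference between a culture and iPS cells.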
